A study of Mus musculus with 48 samples.

Results

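De novo lipogenesis, the synthesis of fatty acids from carbohydrate, is described here through 10 genes: Fasn, Acly, Acaca, Acacb, Me1, Thrsp, Srebf1, Mlxipl, Pklr and Pnpla3. They were taken by gene name, out of 22029 gene names tested in mouse liver. The array carried 24 probes for them, of which 23 passed the filter on dim probes, and all 10 genes kept at least 1 tested probe. Expression was measured on 48 one-colour arrays, 1 per mouse, in 6 groups of 8 male C57BL/6J mice aged 20 weeks. The genotypes were wild type (WT), PPARaLKO (here Pparαhep-/-, Pparα floxed and deleted by an albumin-Cre transgene, which acts in hepatocytes) and PPARaKO (here Pparα-/-, deleted in the whole body). Within each genotype 8 mice ate a control diet (CTRL) and 8 a high fat diet (HFD) with 60% fat for 12 weeks per the labels, while the study's text gives a shorter feeding time. All mice were killed fed and were kept at thermoneutrality. The WT mice were bought and both deleted lines were bred at the study's own facility, so genotype and origin cannot be told apart in comparisons with WT.

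In the fed liver, glucose is broken down to pyruvate, and its carbon leaves the mitochondria as citrate. Acly splits citrate into acetyl-CoA, the acetyl-CoA carboxylases Acaca and Acacb make malonyl-CoA, Fasn assembles palmitate and Me1 supplies NADPH. The transcription factors SREBP-1c, from Srebf1, and ChREBP, from Mlxipl, carry the insulin and the carbohydrate signal to these genes. PPARα, a nuclear receptor that senses fatty acids, is best known for driving fatty acid oxidation in the same cells. Diets in which fat replaces carbohydrate are known to lower hepatic lipogenic transcripts.

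Fasn and Pnpla3 fell on HFD in more than 1 genotype, as did Acaca and Me1, and Acly differed between genotypes, as did the rest of the set. The promoters of Fasn, Acly and Pnpla3 are shown as examples of different make-up. Each is the stretch of 250 bases upstream of the RefSeq gene start, on the gene's own strand from 5′ to 3′, in GRCm38.p6: Fasn at chr11:120824548-120824797 (minus strand), Acly at chr11:100528001-100528250 (minus strand) and Pnpla3 at chr15:84167566-84167815 (plus strand). Capitals mark every match, on either strand, to the CCAAT box (CCAAT), the GC box (GGGCGG) or the nuclear receptor half-site (AGGTCA).
Fasn: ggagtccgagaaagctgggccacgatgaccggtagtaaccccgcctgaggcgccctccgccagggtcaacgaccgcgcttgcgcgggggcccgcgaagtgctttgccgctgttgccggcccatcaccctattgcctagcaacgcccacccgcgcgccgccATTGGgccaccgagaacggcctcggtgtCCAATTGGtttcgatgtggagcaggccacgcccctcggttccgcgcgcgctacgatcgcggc
Acly: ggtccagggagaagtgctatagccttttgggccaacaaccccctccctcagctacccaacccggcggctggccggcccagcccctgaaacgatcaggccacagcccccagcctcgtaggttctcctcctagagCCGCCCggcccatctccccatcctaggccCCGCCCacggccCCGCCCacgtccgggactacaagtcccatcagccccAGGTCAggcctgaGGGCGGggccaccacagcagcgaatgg
Pnpla3: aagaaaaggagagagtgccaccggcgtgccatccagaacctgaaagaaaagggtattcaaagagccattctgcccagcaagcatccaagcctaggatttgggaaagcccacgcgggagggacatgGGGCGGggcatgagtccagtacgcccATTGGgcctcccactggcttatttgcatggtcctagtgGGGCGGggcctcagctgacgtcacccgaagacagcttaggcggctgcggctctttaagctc

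The Fasn window held 3 CCAAT matches, of which the last pair overlap, and no GC box. That of Acly held 4 GC boxes, 1 half-site and no CCAAT match, and that of Pnpla3 held 1 CCAAT match and 2 GC boxes. Over all 10 genes, which have 15 promoter entries, 8 genes had a CCAAT match, against 33.8% of all 32851 promoters, and 5 had a GC box, against 32.7%. Genes with several entries had more chances of a match. The E-box CACGTG and the sterol response element TCACNCCAC were found in 1 gene each, in both cases Mlxipl, against 6.02% and 1.05% of all promoters, and the half-site in 2 genes, against 14%. The Acaca window held none of these letters. These matches describe letters only and no binding was measured.

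Some libraries stood apart before any gene was compared. The 2 arrays of lowest weight in the fit were mouse 1 of Pparαhep-/- on CTRL (weight 0.189) and mouse 6 of WT on CTRL (0.208), where the largest weight was 2.53. Pparα itself, read by 2 probes, was lower than in WT in Pparα-/- mice on both (on HFD by 1.08 and 1.29 log2 units, adjusted p = 2.77e-14 and 1.74e-17, limma). In Pparαhep-/- mice on CTRL it was lower on 1 probe, by 0.42 log2 units (adjusted p = 0.000887), and the second gave -0.10 (adjusted p = 0.454), while on HFD both were lower, by 0.85 and 0.68 log2 units (adjusted p = 5.12e-10 and 3.34e-08). Whether these probes lie in the deleted stretch was not tested. All 6 hepatocyte markers were detected, and their summed signal ranged from 867120 to 1033990 over the 48 mice. By gene, Apoa1, Cps1 and Hnf4a were lower than in WT in Pparα-/- mice on CTRL (-0.51, -0.62 and -0.43) and on HFD (-0.18, -0.46 and -0.29) and in Pparαhep-/- mice on CTRL (-0.25, -0.56 and -0.36), while Alb, Ttr and Tat did not pass there.

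Other cell types moved with the groups. In WT mice on HFD the summed signal of the white adipocyte markers, 3 of 5 of which were tested, had a median of 18771.9 (from 424.654 to 47017.9), while it reached at most 1232.05 in any other group. Cfd, which encodes adipsin, carried this, with a median log2 signal of 14.18 against 7.86 on CTRL. Lep and Retn, for leptin and resistin, stayed at medians of 7.45 and 5.83 against 7.42 and 5.70, and Adipoq, for adiponectin, was well above background on 2 of 48 arrays. Kupffer cell and macrophage markers rose on HFD for 0 of 6 genes in WT, 2 of 6 in Pparαhep-/- and 4 of 6 in Pparα-/- mice, with a median summed signal of 20923.5 (from 13987 to 25852.3) in the last group against 12085.6 (from 8445.98 to 18247.3) on CTRL. Stellate cell markers rose in 0, 1 and 4 of 4. Sox9, a cholangiocyte marker, rose in Pparαhep-/- mice (0.54). Of 6 hepatocyte markers, Cps1, for the first enzyme of the urea cycle, fell in WT, Pparαhep-/- and Pparα-/- mice (-0.88, -0.53 and -0.71), and Tat fell (-0.60) and Apoa1 rose (0.23) in Pparα-/- mice. The part of these cells in the differences below was not tested, and in whole liver fewer cells of a type and less RNA per cell cannot be told apart.

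On HFD every lipogenic gene that passed the test was lower, and most of the set did not pass in WT and Pparα-/- mice. In WT mice 3 of the 10 genes fell at an adjusted p of at most 0.05, namely Fasn, Acaca and Pnpla3, where 10.1% of all tested probes were called lower. In Pparαhep-/- mice 6 fell, namely Fasn, Acly, Acaca, Acacb, Me1 and Pnpla3, against 10.8% of all probes. In Pparα-/- mice 4 fell, namely Fasn, Acaca, Me1 and Thrsp, against 12.6% of all probes. None rose in any genotype. The median log2 difference over the 10 genes was -0.43, -0.83 and -0.58 in WT, Pparαhep-/- and Pparα-/- mice, where that over all gene names was 0.00, -0.01 and -0.01. Under scalings other than quantile normalization the split of all calls moved toward lower in the deleted genotypes. The share of called probes that were higher went from 46.8% to 35.5% (processed signal) or 33.4% (median scaling) in Pparαhep-/- mice, and from 49.3% to 35.6% or 36.3% in Pparα-/- mice. In WT mice it went the other way, from 45.9% to 50.9% or 47.3%. No member changed sign in its HFD difference in those fits. The number that fell in Pparα-/- mice was 9 with the processed signal and 4 with median scaling, against 18.1% and 18.7% of all probes. In Pparαhep-/- mice it was 8 with either, through Thrsp and Mlxipl, against 15.9% and 15.2% of all probes.

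**Figure D1:**
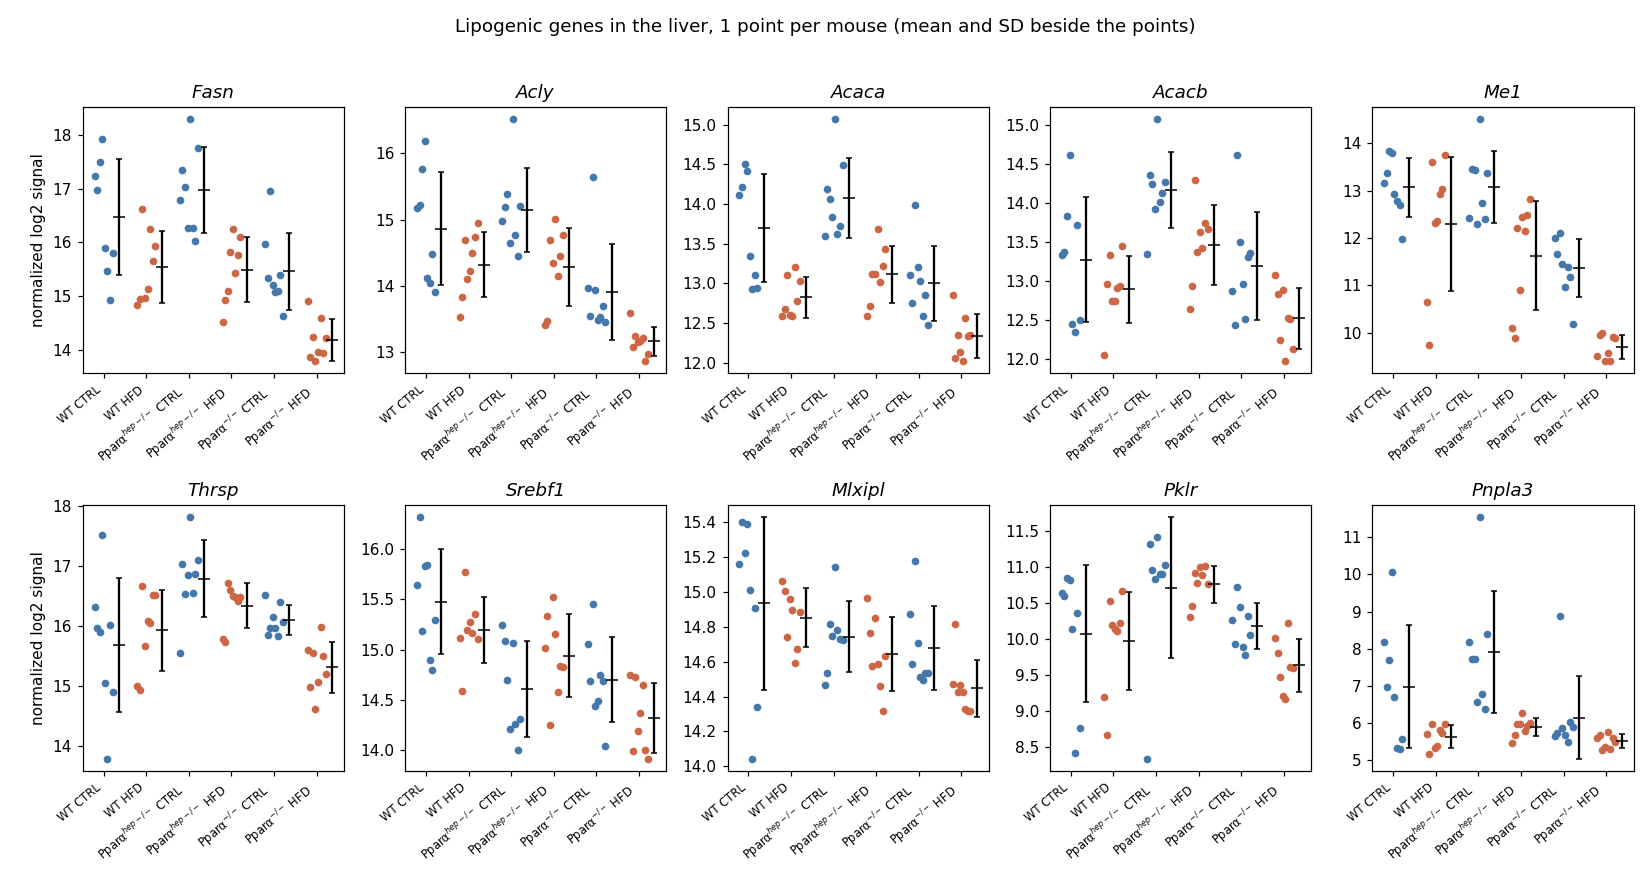
Normalized log2 signal of the lead probe of each of the 10 genes (y axis) in the 6 groups (x axis), 1 point per mouse, CTRL in blue and HFD in orange, with the group mean and SD in black beside the points. Pparα-/- mice on HFD have the lowest group median for every gene, and single mice, such as mouse 1 of Pparαhep-/- on CTRL for Pklr at 8.33, lie far from their group.

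Between genotypes, most of the set was lower in Pparα-/- mice on either diet. On CTRL, 7 genes were lower in Pparα-/- than in WT mice, where 18.7% of probes were lower, and 8 were lower than in Pparαhep-/- mice, where 13.0% were. On HFD, 8 were lower than in WT mice (24.0% of probes) and 8 lower than in Pparαhep-/- mice (15.4% of probes). The median differences over the 10 genes were -0.94 and -1.20 log2 units on CTRL and -0.74 and -1.0 on HFD. The hepatocyte deletion gave a mixed picture. On CTRL, Acacb, Thrsp and Pklr were higher than in WT mice (11.3% of probes were higher) and Srebf1 and Mlxipl were lower (13.4% of probes were lower). On HFD, Pklr was higher (13.3% of probes) and Me1 lower (13.4% of probes). The share of called probes that were higher on HFD went from 49.7% to 37.8% or 37.7% for Pparαhep-/- against WT, and from 47.6% to 37.9% or 36.8% for Pparα-/- against WT, with the processed signal or median scaling. Markers of other cells differed in the same comparisons. On HFD, 5 of 6 Kupffer cell and macrophage markers and 4 of 4 stellate cell markers were higher in Pparα-/- than in WT mice (medians 1.34 and 0.87), and 3 of 6 and 3 of 4 in Pparαhep-/- mice (medians 0.77 and 0.73). On CTRL these counts were 2 of 6 and 1 of 4 for Pparα-/- mice, and 1 of 6 and 1 of 4 for Pparαhep-/- mice. Of the hepatocyte markers, 3 of 6 were lower than in WT in Pparα-/- mice on each diet, and 3 of 6 on CTRL and 1 of 6 on HFD in Pparαhep-/- mice. Pparα-/- and Pparαhep-/- mice differed as well. On HFD, Adgre1 (0.76) and Timd4 (1.47) among 6 Kupffer cell and macrophage markers and Reln (0.52) among 4 stellate cell markers were higher in Pparα-/- mice, and Hnf4a (-0.31) and the cholangiocyte markers Krt7 (-0.47) and Sox9 (-0.63) were lower. On CTRL, Apoa1 (-0.26) and the stellate cell marker Lrat (-0.61) were lower in Pparα-/- than in Pparαhep-/- mice. Cfd, the adipocyte marker, was lower than in WT mice on HFD in Pparαhep-/- (-6.93) and Pparα-/- mice (-7.87), and lower than in WT mice on CTRL in Pparα-/- mice (-2.73), with -1.72 in Pparαhep-/- mice (adjusted p = 0.0659). Among cholangiocyte markers against WT, Sox9 was higher in Pparαhep-/- mice on HFD (0.47) and Krt7 lower in Pparα-/- mice on CTRL (-0.62). The part of these markers in the differences was not tested. Both comparisons with WT on a diet share its 8 WT mice, and every Pparα-/- comparison on a diet shares the same Pparα-/- mice.

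**Figure D2:**
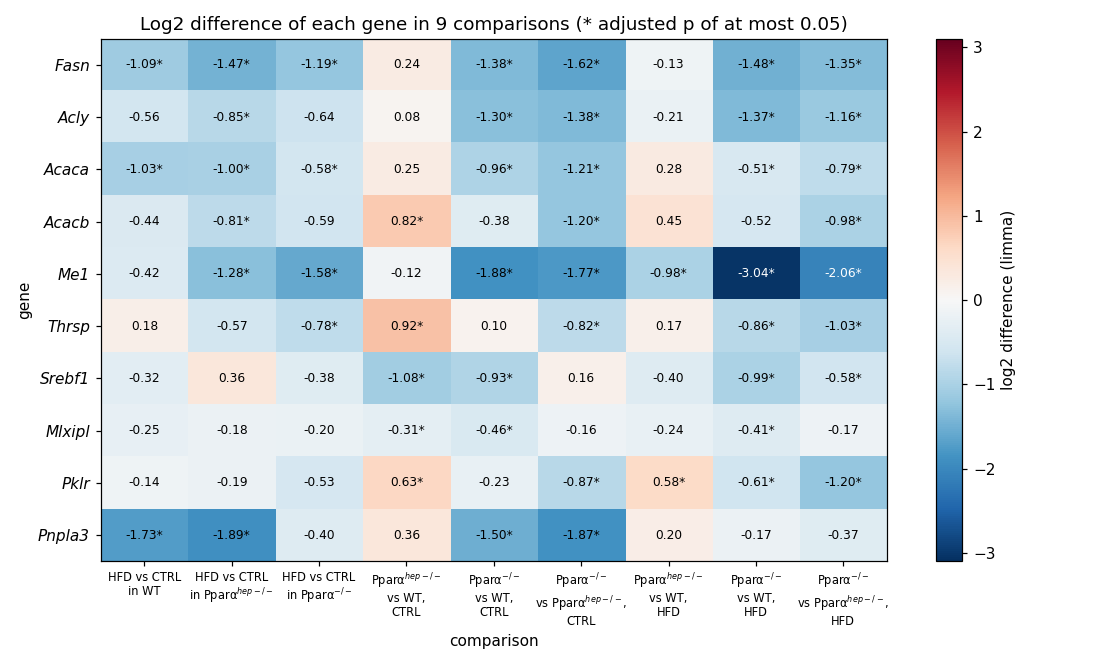
Fitted log2 difference (colour and number) of each of the 10 genes (rows) in the 9 comparisons (columns), with an asterisk at an adjusted p of at most 0.05. The 3 HFD columns hold no gene that rose, Srebf1 and Mlxipl are lower on CTRL in both deleted genotypes, and Me1 has the largest value, -3.04, in Pparα-/- against WT mice on HFD.

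Acly, the ATP citrate lyase that turns citrate into acetyl-CoA for the cytosol, was measured by its brightest probe (NM_001199296, chr11:100337674-100337733, minus strand, mm9). Lowest, median and highest normalized log2 signals were 13.91, 14.83 and 16.18 in WT mice on CTRL and 13.53, 14.36 and 14.95 on HFD. They were 14.45, 15.09 and 16.51 in Pparαhep-/- mice on CTRL and 13.41, 14.40 and 15.01 on HFD. In Pparα-/- mice they were 13.45, 13.62 and 15.64 on CTRL and 12.87, 13.16 and 13.60 on HFD. The diets overlapped in all 3 genotypes, and the Pparα-/- mice on HFD lay at the bottom, below the CTRL mean in 8 of 8 mice. On HFD, Acly fell to 55.5% of its CTRL level in Pparαhep-/- mice (log2 difference -0.85, SE 0.25, adjusted p = 0.0131). The values in WT (-0.56, SE 0.30, adjusted p = 0.197) and Pparα-/- mice (-0.64, SE 0.26, adjusted p = 0.0689) did not pass, although a second Acly probe did in Pparα-/- mice, with -0.62. Without array weights the Pparαhep-/- value lost its call (adjusted p = 0.0889). Compared with WT, Pparα-/- mice had 40.7% of the Acly signal on CTRL (adjusted p = 0.000617) and 38.6% on HFD (adjusted p = 2.32e-05), and Pparαhep-/- mice gave 0.08 and -0.21, within the spread of the mice. Set against Pparαhep-/- mice, the Pparα-/- mice had 38.6% of the Acly signal on CTRL (adjusted p = 9.54e-05) and 44.7% on HFD (adjusted p = 0.000187).

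Acaca, which makes the malonyl-CoA used for synthesis, fell on HFD in every genotype. At its lead probe (NM_133360, chr11:84215093-84215152, plus strand, mm9) the lowest, median and highest signals in WT mice were 12.93, 13.73 and 14.50 on CTRL against 12.59, 12.73 and 13.21 on HFD. For Pparαhep-/- mice the same values were 13.60, 13.94 and 15.07 against 12.60, 13.12 and 13.68, and for Pparα-/- mice 12.47, 12.94 and 13.99 against 12.02, 12.34 and 12.86. Each of the 24 mice on HFD lay below the CTRL mean of its genotype, although the ranges overlapped. The fall was to 48.8% of CTRL in WT (log2 -1.03, SE 0.22, adjusted p = 0.000543), 50.1% in Pparαhep-/- (-0.996, SE 0.18, adjusted p = 0.000129) and 66.9% in Pparα-/- mice (-0.58, SE 0.19, adjusted p = 0.0217). All 6 tested Acaca probes fell in WT and in Pparαhep-/- mice, and 3 of 6 did in Pparα-/- mice. Against WT, Pparα-/- mice had 51.4% on CTRL (adjusted p = 0.000496) and 70.3% on HFD (adjusted p = 0.0242). The last call was lost without mouse 3 (-0.44, adjusted p = 0.0649) or mouse 8 (-0.43, adjusted p = 0.0888) of WT on HFD, without mouse 5 of Pparα-/- on HFD (-0.46, adjusted p = 0.0506), without array weights (adjusted p = 0.0835), and with no filter on dim probes (adjusted p = 0.0523). Against Pparαhep-/- mice they had 43.3% on CTRL (adjusted p = 4.23e-06) and 57.8% on HFD (adjusted p = 0.000440), calls shared by all 6 Acaca probes. For Pparα-/- against WT all 6 probes were called lower on CTRL. On HFD 3 of 6 were, and the others had adjusted p from 0.0696 to 0.114 (limma).

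Acacb is the carboxylase at the mitochondrial surface, whose malonyl-CoA holds back fatty acid import for oxidation. Its lead probe (NM_133904, chr5:114700702-114700761, plus strand, mm9) had lowest, median and highest signals of 12.35, 13.36 and 14.62 in WT mice on CTRL and 12.06, 12.92 and 13.46 on HFD. Those of Pparαhep-/- mice were 13.35, 14.19 and 15.07 on CTRL and 12.64, 13.53 and 14.29 on HFD, the highest of the 3 genotypes on both diets. For Pparα-/- mice they were 12.44, 13.14 and 14.61 on CTRL and 11.97, 12.52 and 13.08 on HFD. Acacb fell on HFD in Pparαhep-/- mice, to 57.0% (log2 -0.81, SE 0.22, adjusted p = 0.00828), a call lost without array weights (adjusted p = 0.125). It gave -0.44 in WT (adjusted p = 0.264) and -0.59 in Pparα-/- mice (adjusted p = 0.0602). Acacb was higher in Pparαhep-/- than in WT mice on CTRL, at 177% of WT (log2 0.82, SE 0.26, adjusted p = 0.0150), with 8 of 8 mice above the WT mean. Without mouse 5 of WT on CTRL this became 0.65 (adjusted p = 0.0744). The value in Pparα-/- mice passed without mouse 2 (-0.67, adjusted p = 0.0343) or mouse 6 (-0.73, adjusted p = 0.0305) of Pparα-/- on CTRL, or mouse 1 on HFD (-0.66, adjusted p = 0.0330). Against WT on HFD, Acacb gave 0.45 in Pparαhep-/- mice (adjusted p = 0.148), which passed without mouse 1 of that group (0.59, adjusted p = 0.0460), and -0.52 in Pparα-/- mice (adjusted p = 0.0585), which passed without mouse 1 of WT (-0.60, adjusted p = 0.0307) or mouse 1 of Pparα-/- on HFD (-0.60, adjusted p = 0.0311). It was lower in Pparα-/- than in Pparαhep-/- mice on CTRL (43.5%, adjusted p = 0.000130) and on HFD (50.7%, adjusted p = 0.000402). The other Acacb probes, of which there are 2, gave HFD differences of 0.01 and -0.05 in WT mice, -0.28 and -0.41 in Pparαhep-/- mice, both called, and -0.35 (called) and 0.04 in Pparα-/- mice. For Pparαhep-/- against WT on CTRL they gave 0.13 and 0.41, the latter called. For Pparα-/- against Pparαhep-/- mice they gave -0.13 and -0.50 on CTRL, the latter called, and -0.20 and -0.05 on HFD, neither called. For Pparα-/- against WT on HFD, where the lead probe did not pass, they gave -0.35 (called) and -0.001. The probes of Acacb thus disagree in these comparisons.

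Fasn, the multifunctional fatty acid synthase, fell on HFD in all 3 genotypes. Its probe (NM_007988, chr11:120668460-120668519, minus strand, mm9) read lowest, median and highest signals of 14.93, 16.43 and 17.92 in WT mice on CTRL and 14.84, 15.39 and 16.62 on HFD. Readings in Pparαhep-/- mice were 16.02, 16.91 and 18.29 on CTRL and 14.52, 15.59 and 16.25 on HFD, and in Pparα-/- mice 14.63, 15.28 and 16.96 against 13.78, 14.08 and 14.90. WT mice on CTRL were widely spread, and the diets overlapped in all 3 genotypes. On HFD, 7 of 8 WT mice and 8 of 8 mice of each deleted genotype lay below the CTRL mean. The HFD level was 46.8% of CTRL in WT (log2 -1.09, SE 0.36, adjusted p = 0.0290), 36.2% in Pparαhep-/- (-1.47, SE 0.31, adjusted p = 0.000713) and 43.7% in Pparα-/- mice (-1.19, SE 0.32, adjusted p = 0.00556). With no filter on dim probes the WT call was lost (-1.01, adjusted p = 0.0868).

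The WT value of Fasn was the least firm of the 3. It lost its call when any of mice 1, 2, 3 or 4 of WT on CTRL or of mice 4, 5 or 7 of WT on HFD was left out, with values from -0.83 (adjusted p = 0.118, without mouse 4 on CTRL) to -1.11 (adjusted p = 0.0523, without mouse 7 on HFD), and without array weights (-0.92, adjusted p = 0.0864). It was -1.51 in wash batch 1 and -0.33 in wash batch 2. Between genotypes, Pparα-/- mice had 38.4% of the WT signal on CTRL (adjusted p = 0.00292) and 35.8% on HFD (adjusted p = 0.000162). Pparαhep-/- mice differed from WT by 0.24 on CTRL (95% interval -0.47 to 0.96) and by -0.13 on HFD (-0.78 to 0.52), neither of which passed. The CTRL value was -0.60 in wash batch 1 and 1.38 in wash batch 2. In that comparison 6 of the 10 genes had opposite signs in the 2 batches, among them Acly (-0.61 and 0.99), Acaca (-0.30 and 0.91), Me1 (-1.07 and 0.81) and Pnpla3 (-0.47 and 2.00), none of these called, and Pklr, which was. Between the deleted genotypes, Pparα-/- mice had 32.5% of the Pparαhep-/- signal on CTRL (adjusted p = 0.000177) and 39.2% on HFD (adjusted p = 0.000397).

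Me1, the cytosolic malic enzyme that makes NADPH while turning malate into pyruvate, is a known PPARα target as well as a lipogenic gene. At its lead probe (NM_001198933, chr9:86475077-86475136, minus strand, mm9) lowest, median and highest signals were 11.98, 13.05 and 13.84 in WT mice on CTRL and 9.74, 12.64 and 13.75 on HFD. They were 12.30, 13.05 and 14.51 in Pparαhep-/- mice on CTRL and 9.89, 12.18 and 12.83 on HFD. Pparα-/- mice had 10.18, 11.42 and 12.10 on CTRL and 9.40, 9.74 and 10.005 on HFD, so that the diets did not overlap, and on CTRL they did not overlap the Pparαhep-/- mice either. Me1 fell on HFD to 41.1% in Pparαhep-/- (log2 -1.28, SE 0.35, adjusted p = 0.00840) and to 33.5% in Pparα-/- mice (-1.58, SE 0.37, adjusted p = 0.00168), and gave -0.42 in WT mice (SE 0.42, adjusted p = 0.556). The WT value was -0.77 by unweighted group means. In wash batches 1 and 2 it was -1.44 and -0.10, against -0.67 and -2.01 in Pparαhep-/- mice. Without array weights the call in Pparαhep-/- mice was lost (adjusted p = 0.0541). A second Me1 probe had the same calls.

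Me1 had the largest difference of the 10 genes for Pparα-/- against WT mice on both diets. On CTRL, Pparα-/- mice had 27.1% of the WT signal (log2 -1.88, SE 0.42, adjusted p = 0.000457), and on HFD 12.1% (-3.04, SE 0.37, adjusted p = 3.23e-09). Relative to Pparαhep-/- mice they had 29.4% on CTRL (adjusted p = 0.000366) and 24.0% on HFD (adjusted p = 5.34e-06). Pparαhep-/- mice on HFD had 50.7% of the WT signal (-0.98, SE 0.37, adjusted p = 0.0428), with 5 of 8 mice below the WT mean. That call was lost without mice 3, 6, 7 or 8 of WT on HFD or mice 1, 2 or 4 of Pparαhep-/- on HFD, with values from -0.67 (adjusted p = 0.222, without WT mouse 8) to -0.95 (adjusted p = 0.0532, without WT mouse 6), without array weights (-0.66, adjusted p = 0.370), and with no filter on dim probes (-0.92, adjusted p = 0.145).

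Thrsp, a small nuclear and cytosolic protein that answers to thyroid hormone and carbohydrate and is needed for full lipogenesis, did not pass on HFD in WT mice. Its lead probe (NM_009381, chr7:104561649-104561708, minus strand, mm9) had lowest, median and highest signals of 13.78, 15.94 and 17.52 in WT mice on CTRL and 14.92, 16.07 and 16.67 on HFD. For Pparαhep-/- mice they were 15.54, 16.86 and 17.82 against 15.73, 16.48 and 16.71, and for Pparα-/- mice 15.83, 16.01 and 16.51 against 14.62, 15.35 and 15.98. The HFD difference was 0.18 in WT (SE 0.28, adjusted p = 0.724), -0.57 in Pparαhep-/- (SE 0.23, adjusted p = 0.0800) and -0.78 in Pparα-/- mice (SE 0.25, adjusted p = 0.0173). With the 2 arrays of lowest weight left out, the Pparαhep-/- value passed (-0.60, adjusted p = 0.0489), and without array weights the Pparα-/- value did not (adjusted p = 0.0934). On CTRL, Thrsp was higher in Pparαhep-/- than in WT mice (log2 0.92, SE 0.27, adjusted p = 0.00944) and lower in Pparα-/- than in Pparαhep-/- mice (-0.82, adjusted p = 0.0130). On HFD, Pparα-/- mice had 55.2% of the WT signal (adjusted p = 0.00335). Without array weights the last 2 of these calls were lost (adjusted p = 0.130 and 0.134).

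Pklr, the liver and red cell pyruvate kinase at the end of glycolysis and a classic ChREBP target, did not pass on HFD in any genotype. At its probe (NM_013631, chr3:88948907-88949425, plus strand, mm9) lowest, median and highest signals were 8.41, 10.48 and 10.86 in WT mice on CTRL and 8.66, 10.17 and 10.67 on HFD. Pparαhep-/- mice had 8.33, 10.94 and 11.42 on CTRL and 10.31, 10.83 and 11.02 on HFD, and Pparα-/- mice 9.78, 10.16 and 10.72 against 9.17, 9.60 and 10.22. The value 8.33 came from 1 mouse, mouse 1, and the next of its group was 10.84. HFD differences were -0.14, -0.19 and -0.53 in WT, Pparαhep-/- and Pparα-/- mice (adjusted p = 0.747, 0.532 and 0.0588). The Pparαhep-/- value had no settled direction, with unweighted group means of 10.72 on CTRL and 10.77 on HFD, 0.08 without array weights, 0.73 in wash batch 1 and -0.35 in wash batch 2. The Pparα-/- value passed without mouse 2 (-0.56, adjusted p = 0.0488) or mouse 6 (-0.62, adjusted p = 0.0388) of Pparα-/- on CTRL, without mouse 1 (-0.58, adjusted p = 0.0395) or mouse 6 (-0.59, adjusted p = 0.0350) on HFD, and without the 2 arrays of lowest weight (-0.52, adjusted p = 0.0298).

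Between genotypes Pklr did differ. On HFD, Pparα-/- mice had 43.6% of the Pparαhep-/- signal (log2 -1.20, SE 0.19, adjusted p = 2.77e-06) and the groups did not overlap. Against WT on HFD, Pklr was lower in Pparα-/- mice (-0.61, SE 0.20, adjusted p = 0.0125) and higher in Pparαhep-/- mice (0.58, SE 0.21, adjusted p = 0.0314, 8 of 8 mice above the WT mean). The first was lost without mouse 8 of WT on HFD (-0.45, adjusted p = 0.0946), and the second without mice 1, 2, 5 or 7 of WT on HFD or 5, 6 or 7 of Pparαhep-/- on HFD (adjusted p from 0.0559 to 0.0890). On CTRL, Pparαhep-/- mice were higher than WT (0.63, SE 0.23, adjusted p = 0.0363), with -0.15 in wash batch 1 and 1.16 in wash batch 2, and Pparα-/- mice were lower than Pparαhep-/- mice (-0.87, SE 0.21, adjusted p = 0.00182), with 0.32 and -1.12 in the 2 batches. The former call was lost without mice 5, 6 or 8 of WT on CTRL or 2, 5 or 8 of Pparαhep-/- on CTRL (adjusted p from 0.0530 to 0.101). The 3 Pklr calls against WT were lost with no filter on dim probes (adjusted p from 0.0707 to 0.0871). All of these Pklr calls except the one between the deleted genotypes on HFD were lost without array weights (adjusted p from 0.103 to 0.464), with the value on HFD against WT at -0.33 in Pparα-/- mice and the CTRL difference between the deleted genotypes at -0.52.

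Pnpla3, a lipid droplet protein of the patatin family that is induced by carbohydrate feeding, was the dimmest of the set. Its lead probe (NM_054088, chr15:84019823-84019882, plus strand, mm9) was well above background on 6, 3, 8, 6, 4 and 3 of 8 arrays in WT on CTRL, WT on HFD, Pparαhep-/- on CTRL, Pparαhep-/- on HFD, Pparα-/- on CTRL and Pparα-/- on HFD. Lowest, median and highest signals were 5.29, 6.83 and 10.08 in WT mice on CTRL and 5.16, 5.70 and 5.98 on HFD. Pparαhep-/- mice had 6.38, 7.71 and 11.56 on CTRL and 5.46, 5.94 and 6.27 on HFD, without overlap, and in Pparα-/- mice 5.47, 5.79 and 8.88 against 5.27, 5.54 and 5.76. The 3 HFD groups were close together near background, and the CTRL groups of WT and Pparαhep-/- mice reached far above it. Pnpla3 fell to 30.1% of CTRL in WT (log2 -1.73, SE 0.53, adjusted p = 0.0162) and to 26.9% in Pparαhep-/- mice (-1.89, SE 0.45, adjusted p = 0.00219), and gave -0.40 in Pparα-/- mice (SE 0.47, adjusted p = 0.571). Because many HFD values lay near background, the size of these falls is uncertain. Without mouse 4 of WT on CTRL the WT value was -1.13 (adjusted p = 0.107), and without array weights the adjusted p was 0.0831.

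On CTRL, Pnpla3 was lower in Pparα-/- than in WT mice (-1.50, SE 0.53, adjusted p = 0.0252) and than in Pparαhep-/- mice (-1.87, SE 0.48, adjusted p = 0.00274). The first call was lost without mouse 1 (-1.34, adjusted p = 0.0656) or mouse 4 (-0.90, adjusted p = 0.170) of WT on CTRL, without mouse 6 of Pparα-/- on CTRL (-1.37, adjusted p = 0.0625), without array weights (-0.83, adjusted p = 0.240), and with no filter (-1.31, adjusted p = 0.0708). With 4 of 8 Pparα-/- arrays on CTRL well above background, the size of both differences is uncertain. A second Pnpla3 probe gave HFD differences of -1.27 in WT, -0.87 in Pparαhep-/- and 0.04 in Pparα-/- mice, of which the first pair passed. It was well above background on 8, 4, 6, 1, 1 and 1 of 8 arrays in the same order of groups as the lead probe, so the size of these differences is uncertain too, and in Pparα-/- mice both diets lay near background. The probes disagreed on Pparαhep-/- against WT on CTRL, with -0.84 (called) for the second probe and 0.36 for the lead probe.

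Srebf1 encodes SREBP-1, the membrane-bound factor released to the nucleus when insulin is high, and the array does not report that cleavage. Its probe (NM_011480, chr11:60013214-60013273, minus strand, mm9) had lowest, median and highest signals of 14.80, 15.47 and 16.32 in WT mice on CTRL and 14.59, 15.18 and 15.78 on HFD. In Pparαhep-/- mice these were 14.01, 14.51 and 15.24 on CTRL and 14.25, 14.92 and 15.53 on HFD, the only genotype in which the HFD median lay above that of CTRL. The Pparα-/- mice had 14.04, 14.69 and 15.46 on CTRL and 13.91, 14.28 and 14.75 on HFD. None of the HFD differences passed, with -0.32 in WT (SE 0.21, adjusted p = 0.309), 0.36 in Pparαhep-/- (SE 0.18, adjusted p = 0.145) and -0.38 in Pparα-/- mice (SE 0.18, adjusted p = 0.125).

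On CTRL, Srebf1 was lower than in WT in both deleted genotypes, to 47.2% in Pparαhep-/- (log2 -1.08, SE 0.20, adjusted p = 7.43e-05) and 52.6% in Pparα-/- mice (-0.93, SE 0.21, adjusted p = 0.000483), with 8 of 8 mice below the WT mean in each. Of the enzymes, Fasn, Acly and Acaca were also lower than in WT in Pparα-/- mice, and gave 0.24, 0.08 and 0.25 in Pparαhep-/- mice on the same diet. On HFD, Srebf1 was lower in Pparα-/- than in WT mice (50.5%, adjusted p = 1.56e-05) and than in Pparαhep-/- mice (66.8%, adjusted p = 0.00683), and Pparαhep-/- against WT gave -0.40 (SE 0.18, adjusted p = 0.0959).

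Mlxipl, which encodes ChREBP, had the smallest differences among those called. Its lead probe (NM_021455, chr5:135613705-135613764, plus strand, mm9) had lowest, median and highest signals of 14.04, 15.09 and 15.40 in WT mice on CTRL and 14.59, 14.89 and 15.07 on HFD. Those of Pparαhep-/- mice were 14.46, 14.74 and 15.14 against 14.32, 14.61 and 14.96, and those of Pparα-/- mice 14.49, 14.56 and 15.18 against 14.32, 14.43 and 14.82. HFD differences were -0.25, -0.18 and -0.20 in WT, Pparαhep-/- and Pparα-/- mice (adjusted p = 0.131, 0.179 and 0.159), and the first passed without mouse 8 of WT on CTRL (-0.33, adjusted p = 0.0275). Compared with WT, Mlxipl was lower in Pparα-/- mice on CTRL (to 72.5%, adjusted p = 0.00160) and on HFD (to 75.3%, adjusted p = 0.000812), and in Pparαhep-/- mice on CTRL (to 80.9%, adjusted p = 0.0396). The last call was lost without mice 1 to 5 of WT on CTRL or mice 2, 4, 7 or 8 of Pparαhep-/- on CTRL (adjusted p from 0.0613 to 0.126), with slide as a block (adjusted p = 0.0639), the processed signal (0.0750), median scaling (0.102) or no filter (0.139), and both CTRL calls without array weights (-0.26, adjusted p = 0.146 for Pparα-/- and -0.19, adjusted p = 0.379 for Pparαhep-/- mice). On HFD, Pparαhep-/- against WT gave -0.24 (adjusted p = 0.0731), which passed without mouse 7 of WT or mouse 1, 2 or 4 of Pparαhep-/- on HFD (values from -0.26 to -0.30, adjusted p from 0.0251 to 0.0494). Of the 2 other Mlxipl probes, both were lower in Pparαhep-/- than in WT mice on CTRL (-0.29 and -0.49). On HFD they disagreed in that comparison, with -0.03 (adjusted p = 0.723) and -0.57 (adjusted p = 0.00285, limma), the latter called. They disagreed on Pparα-/- against WT, with -0.15 on CTRL and 0.04 on HFD for 1 probe, neither called, and -0.59 and -0.48 for the other, both called. The first of them fell on HFD in WT mice (-0.22), where the lead probe did not pass.

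Whether the HFD response itself differed between genotypes was asked through the interaction of diet and genotype. For the lead probes 0 of 10 genes passed in each of the 3 pairs of genotypes (limma), where 10.4% (Pparαhep-/- against WT), 14.3% (Pparα-/- against WT) and 3.42% (Pparα-/- against Pparαhep-/-) of all probes were called in either direction. At an unadjusted p under 0.05 it was 2 of 10 in each pair, where 26.4%, 29.4% and 16.7% of all probes lay under it. The falls of Fasn therefore were not shown to differ between genotypes, with differences in response of -0.37 (95% interval -1.34 to 0.59), -0.10 (-1.08 to 0.88) and 0.27 (-0.63 to 1.18) in that order. The first was 0.61 in wash batch 1 and -1.48 in wash batch 2. Srebf1 came close in both pairs with Pparαhep-/- mice, at 0.68 (0.13 to 1.23, adjusted p = 0.0978) and -0.74 (-1.25 to -0.23, adjusted p = 0.0996). Without mouse 7 of WT on CTRL the first was 0.80 (adjusted p = 0.0411). Thrsp gave -0.96 for Pparα-/- against WT mice (-1.70 to -0.21, adjusted p = 0.0736), which passed without mouse 4 of WT on CTRL (-1.30, adjusted p = 0.00725) and without mouse 1 (-1.07, adjusted p = 0.0401) or mouse 2 (-1.03, adjusted p = 0.0483) of WT on HFD. Its value for Pparαhep-/- against WT, -0.75 (adjusted p = 0.180), passed without mouse 4 of WT on CTRL too (-1.06, adjusted p = 0.0300). The Pnpla3 responses differed by 1.33 (adjusted p = 0.202) and 1.49 (adjusted p = 0.221) for Pparα-/- against WT and Pparαhep-/- mice, and those of Me1 by -1.16 (adjusted p = 0.159) for Pparα-/- against WT.

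The mice of 1 group differed more in these genes than in most others. The SD within groups ranked from the 70.1 percentile of all gene names (Mlxipl) to the 99.6 percentile (Pnpla3). Mouse 6 and mouse 8 of WT on CTRL lay below their group for 10 of 10 genes, with mean deviations of -1.93 and -1.44 within-group SDs, and mouse 5 of Pparαhep-/- on CTRL, mouse 4 of WT on CTRL and mouse 3 of Pparα-/- on CTRL lay above theirs by 1.94, 1.92 and 1.80. The largest mean deviations thus were in CTRL groups. Leaving out the 2 arrays of lowest weight, mouse 6 of WT and mouse 1 of Pparαhep-/- on CTRL, kept all 51 calls of the 9 comparisons and added 2. Leaving out single arrays kept 41 of the 51 in every fit, and 34 were kept without array weights. Of the 51, 49 had the same sign in both wash batches, the exceptions being the pair of Pklr values given above.

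**Figure D3:**
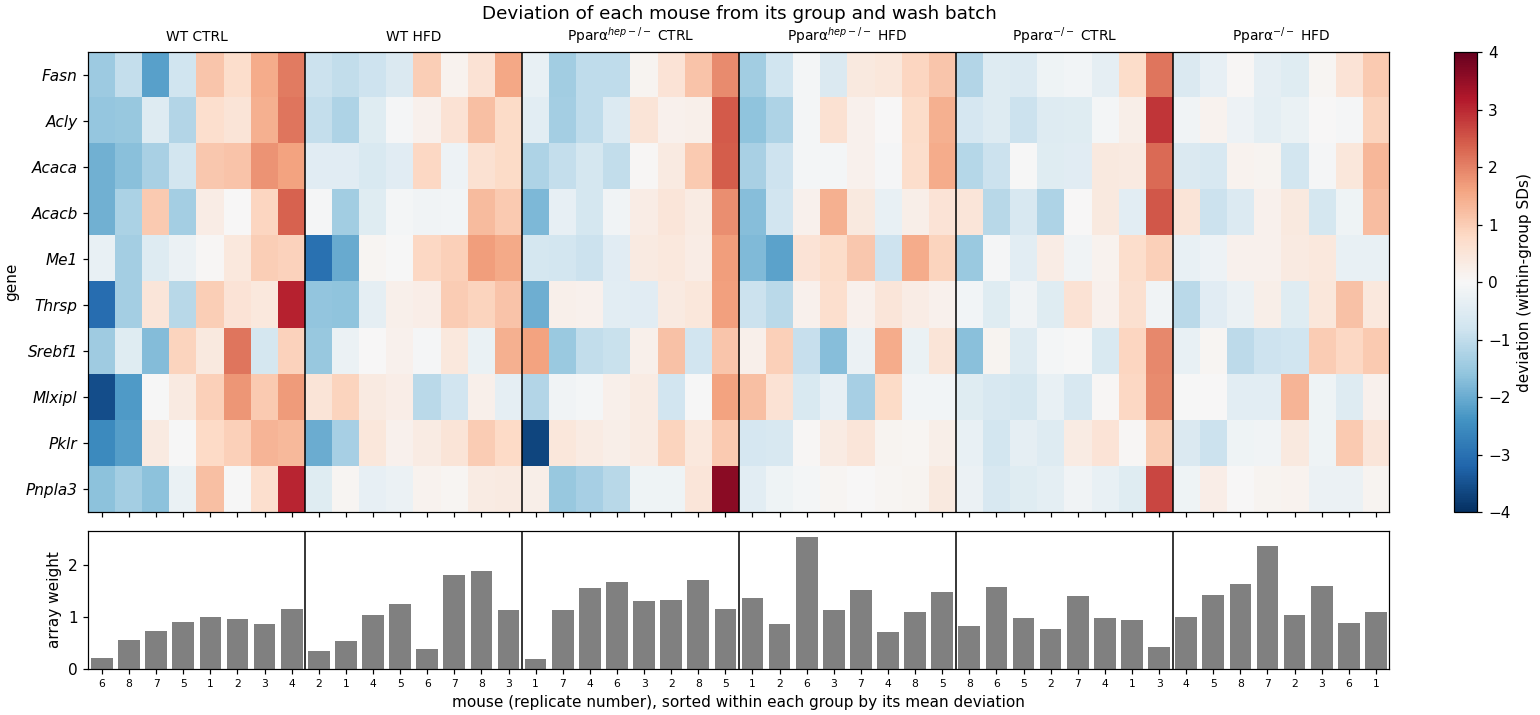
Deviation of each mouse (columns, sorted within its group) from its group and wash batch mean for each gene (rows), in within-group SDs, with the array's weight in the fit as bars below. Whole columns share a colour, as in mouse 6 and mouse 8 of WT on CTRL, which are below their group for 10 of 10 genes.

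After group and wash batch were taken out, the genes varied together across the 48 mice. All 45 pairs of genes had a positive Pearson r, 30 of them above 0.5, with a median of 0.60, a lowest of 0.07 (Me1 with Mlxipl) and a highest of 0.92 (Fasn with Acaca). These are descriptions, and the points share array, normalization and any difference in feeding or RNA. The genes most like Fasn among 22028 others were Acaca (r = 0.92, Spearman rho = 0.91), Acly (0.87, rho = 0.90), Gpam (0.85, rho = 0.84), which starts glycerolipid synthesis, Elovl6 (0.80), which lengthens palmitate, and Pnpla3 (0.79). Thrsp and Pklr formed the closest pair outside these, at 0.82. Srebf1 stood off, with r from 0.09 (Acacb) to 0.59 (Fasn) among the set. Its likest gene was Mid1ip1 (r = 0.86, rho = 0.88), which encodes a partner of the Thrsp protein, followed by Eepd1 (0.69), ENSMUST00000186517 (0.66), Slc8a3 (0.65) and NAP111750-1 (0.65).

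**Figure D4:**
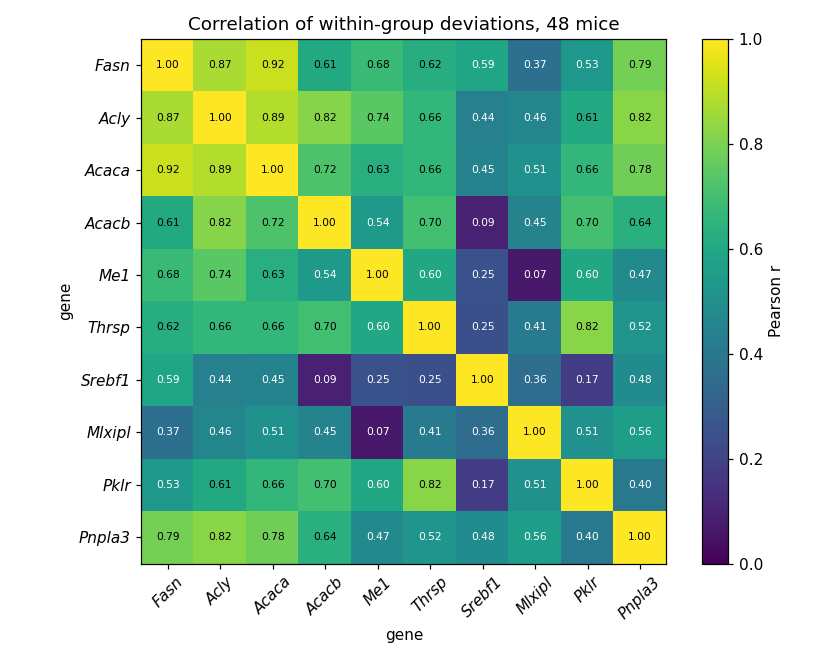
Pearson r between each pair of the 10 genes (both axes) over the 48 mice, after the group and wash batch means were taken out. Fasn, Acly and Acaca are close to one another (0.87 to 0.92), and Srebf1 and Mlxipl have the darkest cells, down to 0.07 for Mlxipl with Me1.

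The 5 lists of other genes place the set among its neighbours, given by counts of lead probes and beside the share of all gene names called. For the supply of carbon and NADPH (15 genes), HFD raised 2, 2 and 3 and lowered 1, 3 and 1 in WT, Pparαhep-/- and Pparα-/- mice, where 9.32%, 10.7% and 13.8% of all gene names rose and 10.1%, 11.8% and 12.6% fell. G6pdx, which makes NADPH in the pentose phosphate pathway, fell in WT (-0.68, adjusted p = 0.00770) and Pparαhep-/- mice (-0.76, adjusted p = 0.000712) and rose in Pparα-/- mice (0.73, adjusted p = 0.00133). The G6pdx response of Pparα-/- mice differed from that of WT by 1.41 (adjusted p = 0.000198) and from that of Pparαhep-/- mice by 1.48 (adjusted p = 0.000121), while the Me1 responses did not pass that test. Acss2, which makes acetyl-CoA from acetate, fell by 1.49 in Pparαhep-/- mice (adjusted p = 1.64e-06), and its response differed from that of WT by -1.79 (adjusted p = 0.000317). On HFD, 12 of the 15 were lower in Pparα-/- than in Pparαhep-/- mice (median -0.32), where 15% of gene names were.

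Downstream of palmitate (13 genes), HFD lowered 2, 8 and 4 and raised 1, 0 and 1 in WT, Pparαhep-/- and Pparα-/- mice. Of all gene names 10.1%, 11.8% and 12.6% fell and 9.32%, 10.7% and 13.8% rose. Scd1, which desaturates stearate to oleate, changed by -1.23 in WT (adjusted p = 0.0383), -1.85 in Pparαhep-/- (adjusted p = 0.000346) and -4.16 in Pparα-/- mice (adjusted p = 2.22e-10). Its response in Pparα-/- mice differed from that in WT by -2.92 (adjusted p = 0.000600) and in Pparαhep-/- mice by -2.31 (adjusted p = 0.00871), whereas the Fasn responses did not pass that test. Elovl6 changed by -1.43, -1.98 and -1.22 in the 3 genotypes (adjusted p = 0.00105, 1.43e-06 and 0.00134). Acsl5, an acyl-CoA synthetase, fell by 0.78 in Pparαhep-/- and 0.40 in Pparα-/- mice (adjusted p = 5.00e-07 and 0.00445), and Agpat2, of glycerolipid synthesis, rose by 0.55 in WT mice (adjusted p = 0.000126).

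Cholesterol synthesis (14 genes), the other SREBP pathway, went up in WT and down in Pparαhep-/- mice. On HFD 6 of 14 rose in WT mice (median 0.65), led by Msmo1 (1.70), Hmgcs1 (1.60) and Nsdhl (1.38), with adjusted p = 1.83e-06, 0.000228 and 0.000197. In Pparαhep-/- mice 12 of 14 fell (median -1.07), among them Mvd (-1.86) and Sqle (-1.56), with adjusted p = 1.47e-05 and 0.000287. In Pparα-/- mice 1 of 14 fell and 0 rose. Of all gene names 9.32%, 10.7% and 13.8% rose and 10.1%, 11.8% and 12.6% fell in WT, Pparαhep-/- and Pparα-/- mice. For 12 of the 14 the response itself differed between Pparαhep-/- and WT mice (median -1.85), where 4.86% of all gene names passed in the higher and 6.3% in the lower direction, while 0 of the 10 lipogenic genes did. These counts are those of the fit with array weights. Without weights the calls over all probes went from 6735 to 1270 for HFD in Pparαhep-/- mice. For the difference in response of Pparαhep-/- and WT mice they went from 3472 to 298. Across the 48 mice the list had a median r of 0.52 with Fasn and 0.00 with Srebf1, where all gene names had 0.00 and 0.01.

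**Figure D5:**
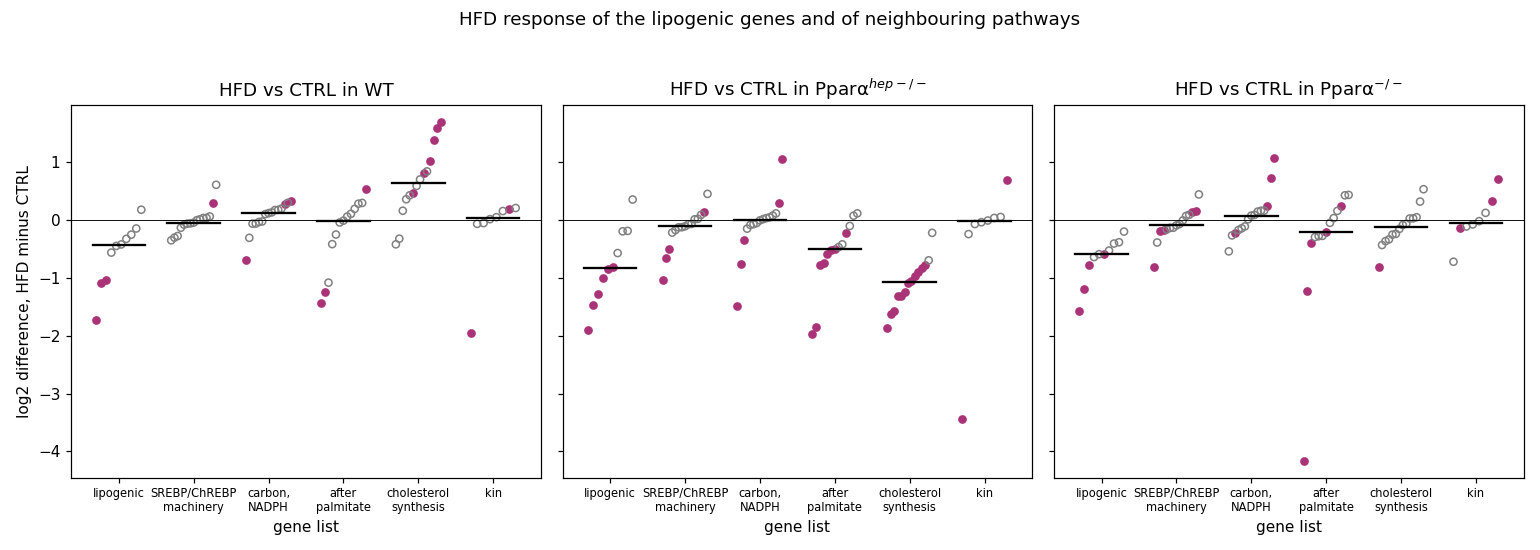
HFD response (log2 difference, y axis) of the 10 lipogenic genes and of 5 neighbouring lists (x axis) in each genotype, 1 point per gene, filled at an adjusted p of at most 0.05, with a black line at the list's median. The lipogenic median is below 0 in all 3 panels (-0.43, -0.83 and -0.58), while that of cholesterol synthesis is 0.65 in WT and -1.07 in Pparαhep-/- mice.

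Of the machinery around SREBP and ChREBP (15 genes), 1, 1 and 2 genes were higher and 0, 3 and 3 lower on HFD in WT, Pparαhep-/- and Pparα-/- mice, where 9.32%, 10.7% and 13.8% of all gene names were higher and 10.1%, 11.8% and 12.6% lower. Srebf2, of the cholesterol branch, rose by 0.29 in WT mice (adjusted p = 0.00659). Insig1, which keeps SREBPs in the endoplasmic reticulum and is itself an SREBP target, fell by 1.04 in Pparαhep-/- (adjusted p = 0.000159) and 0.80 in Pparα-/- mice (adjusted p = 0.00313). Scap, the SREBP escort, fell by 0.65 (adjusted p = 1.37e-08) and the coactivator gene Ppargc1b by 0.50 (adjusted p = 0.0102) in Pparαhep-/- mice, and Mbtps2, a SREBP protease, by 0.19 (adjusted p = 0.0226) and Mlx, the ChREBP partner, by 0.17 (adjusted p = 0.0447) in Pparα-/- mice.

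Relatives of the set (8 genes) included Pnpla5, which fell on HFD in WT (-1.95, adjusted p = 0.00742) and, at -3.44, in Pparαhep-/- mice (adjusted p = 7.88e-07) and had an r of 0.75 with Fasn. Pkm, the pyruvate kinase of other tissues, rose by 0.70 in Pparαhep-/- and 0.72 in Pparα-/- mice (adjusted p = 0.00237 and 0.00226), while Pklr did not pass in either. Kupffer cell and stellate cell markers rose as well in both deleted genotypes (2 of 6 and 1 of 4 in Pparαhep-/-, 4 of 6 and 4 of 4 in Pparα-/- mice), and their part in the Pkm values was not tested. The mitochondrial malic enzyme Me2 rose by 0.33 in Pparα-/- mice (adjusted p = 0.0181), where Me1 fell.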

How the data were processed

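Liver RNA was hybridised to one-colour Agilent arrays and read with Agilent Feature Extraction 10.10.1.1, per the submitters' processing notes. The deposited spot intensity used here is the median pixel intensity, which per the file headers carried no background subtraction and no normalization. The authors also deposited a log2 table, made after a filter, a correction for the wash bath and quantile normalization, which served as an alternative. Probe positions are those of the files (mm9).

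Outlier spots were left out and probes averaged. A probe stayed in when 4 or more of the 8 arrays of a group called it well above background (33323 probes, 195 missing values, fitted by their missing pattern). Quantile-normalized log2 values were fitted with limma 3.58.1 (R 4.3.3) with 6 group means, a term for the wash batch and a weight per array, and Benjamini-Hochberg adjustment ran over all probes of a contrast. A gene was called by its lead probe, the tested probe of highest mean signal, at an adjusted p of at most 0.05. Array number limits the precision. P-values cover the spread between mice, taken as separate animals. Promoters came from RefSeq (GRCm38.p6).

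All 10 members are named, and of each other list the 3 largest called HFD differences, except a few genes that are not reported here. A few further values, given beside a member for contrast, were chosen after they were seen. Members and lists were chosen with earlier results of these data known. Replicate numbers did not pair mice. The fit was run on simulated data, with independent noise and with changes only in probes of below-median spread. That run did not cover genes that vary as much, and together, as these 10. Alternatives covered weights, wash term, slide, background, scaling, filter, probe choice, the authors' table and each left-out array.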

Additional observations from a re-analysis of the deposited data

Results flagged for a closer look

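Single mice lay far from their group in 6 of 60 groups of 8 values (10 genes in 6 groups), where a gap that large is passed in about 1 of 20 groups by chance, or 3 of 60. Acly was 16.51 in mouse 5 of Pparαhep-/- on CTRL, with the next mouse at 15.38, and 15.64 in mouse 3 of Pparα-/- on CTRL, with the next at 13.97. The same mice had the Pnpla3 values that stood off, 11.56 (next 8.38) and 8.88 (next 6.01). Mlxipl was 14.82 in mouse 2 of Pparα-/- on HFD (next 14.47), and Pklr was 8.33 in mouse 1 of Pparαhep-/- on CTRL (next 10.84).

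The test of the HFD response between genotypes passed at some probes that were not the brightest of their gene. The second Thrsp probe differed between Pparα-/- and WT mice by -1.24 log2 units (adjusted p = 0.0329, limma), and the second Pnpla3 probe by 1.31 (adjusted p = 0.0353). That Pnpla3 probe was well above background on 8 and 4 of 8 WT arrays on CTRL and HFD and on 1 of 8 Pparα-/- arrays on each diet. A fall in Pparα-/- mice could thus hardly be seen, and its value cannot show that the response differed. An Mlxipl probe differed between Pparαhep-/- and WT mice by 0.26 (adjusted p = 0.0319). These were 2 of 23 member probes for Pparα-/- against WT and 1 of 23 for Pparαhep-/- against WT, where 14.3% and 10.4% of all probes were called. The lead probes of these genes did not pass in the same contrasts.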

How the results depend on the processing

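Replicate numbers did not pair the mice. With a replicate block the counts of called genes were 7 (HFD in Pparα-/-, 4 without it), 3 (Pparαhep-/- against WT on CTRL) and 1 (on HFD), and Fasn in WT on HFD had an adjusted p of 0.0568. With the block, Mlxipl (0.110) and Pklr (0.0544) for Pparαhep-/- against WT on CTRL, Pnpla3 for Pparα-/- against WT on CTRL (0.0920) and Me1 for Pparαhep-/- against WT on HFD (0.105) lost their calls, and Acly (0.0327), Acacb (0.0277) and Pklr (0.0402) gained one for HFD in Pparα-/- mice.

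Without array weights the counts were 1 (HFD in WT, otherwise 3), 3 (HFD in Pparαhep-/-, otherwise 6), 3 and 0 (Pparαhep-/- against WT on CTRL and HFD, otherwise 5 and 2) and 5 (Pparα-/- against WT on HFD, otherwise 8). The last but one was 1 without the wash term, 4 with the processed signal or median scaling, and 0 with no filter, where the CTRL count was 3 and those of HFD in WT and of Pparα-/- against WT on CTRL and HFD were 2, 6 and 6. The processed signal gave 9 for HFD in Pparα-/- mice, where 18.1% of all probes were called lower. Without array weights 6.66% and 2.23% of all probes were called lower on HFD in WT and Pparαhep-/- mice. That share was 9.12% and 5.18% for Pparαhep-/- against WT on CTRL and HFD, and 16.5% for Pparα-/- against WT on HFD. With no filter it was 3.84% for HFD in WT, and 9.48% and 11.8% for Pparα-/- against WT on CTRL and HFD. For the difference in response of Pparα-/- and WT mice, 1 gene passed with the processed signal, median scaling or the mean of a gene's probes. Over single left-out mice the counts ran from 1 to 4, 6 to 6 and 4 to 6 (HFD in WT, Pparαhep-/- and Pparα-/-), 2 to 5, 6 to 7 and 8 to 8 (Pparαhep-/- against WT, Pparα-/- against WT and against Pparαhep-/- on CTRL), 1 to 3, 6 to 9 and 8 to 8 (the same on HFD), and 0 to 1, 0 to 1 and 0 to 0 (differences in response, in that order). Pklr turned sign in wash batch 1, to -0.15 for Pparαhep-/- against WT and 0.32 for Pparα-/- against Pparαhep-/- mice on CTRL, and Pdha1 for HFD in Pparα-/- mice went from 0.24 (adjusted p = 0.00662) to -0.0124 with the mean of its probes. The cause was not tested.

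Over all probes, without weights 1270, 4034 and 3244 probes were called for HFD in Pparαhep-/-, HFD in Pparα-/- and Pparαhep-/- against WT on HFD, against 6735, 8273 and 8893, and 6047 against 10188 for Pparα-/- against Pparαhep-/- on HFD. Differences in response fell to 298, 1740 and 110 from 3472, 4781 and 1139 without weights, to 1226, 2528 and 399 with no filter, and to 2185, 3099 and 760 without the wash term, and slide in place of wash gave 2122 for the first. For HFD in Pparαhep-/- mice no filter gave 3578 and no wash term 4236, and for Pparαhep-/- against WT on HFD no filter gave 5633. The replicate block gave 2276 for the first difference in response. Over single left-out mice the differences in response ran from 2118 to 4519, 3458 to 5501 and 550 to 1407 probes. Taking the mean of a gene's probes leaves fewer features to test. Gene-by-gene weights, the authors' table and trended robust moderation changed none of the 120 calls of the 10 genes in 12 comparisons. Signal near background limits Pnpla3.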
